A study of Pleurotus ostreatus with 4 samples.

Results

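The sequences described here were held in common by the vegetative mycelium and the primordium of the oyster mushroom Pleurotus ostreatus and had lost abundance by the mature fruit body. They were 60 of the 51131 sequences in the deposited table. Abundance is given as FPKM, the fragments counted on a sequence per kilobase of its length and scaled to the library's total. A sequence was taken where it had at least 5 FPKM in primordium, where log2(FPKM + 1) differed by less than 1 between primordium and mycelium, and where log2(FPKM + 1) in mature fruit body lay at least 1 below the lower of these 2 libraries. The 60 members were therefore chosen by their measured values in mycelium, primordium and mature fruit body, and those values are given as a description. The young fruit body library was not used in the choice, although its differences from primordium and from mature fruit body share a library with it.

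RNA was sequenced from wild-type material of strain P739, with 1 library at each of 4 stages: mycelium, primordium, young and mature fruit body. With no replicate of any stage, no difference between stages could be set against the spread between samples, and no p-value is given. Whether a library came from 1 culture or mushroom or from pooled material is not stated in the labels. The libraries held between 14833311 and 15492463 recovered fragments, and for a sequence of 1000 nt each fragment added 0.0637 to 0.0665 FPKM.

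Pleurotus ostreatus is a white-rot fungus that grows as a mycelium, a network of hyphae that digests wood. On cues such as cooling, light and fresh air, hyphae knit together into primordia, the small knots of tissue from which stipe, cap and gills are formed. The young fruit body expands into the mature one, whose gills carry the spore-bearing cells. A transcript that is held in common by mycelium and primordium and is scarce later thus spans the passage into fruiting and fades while the mushroom is formed. The table pairs no identifier with a gene name, and 0 identifiers matched the 11849 genes of a RefSeq table of strain PC9, so members are named by identifier and their functions are not stated. For the same reason the tissue labels could not be checked against marker genes. In RNA of whole tissue, fewer cells of a type and less of a transcript per cell cannot be told apart.

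Of the 60 members, 34 were contigs from 29 clusters and 26 were single unigenes. Their lengths, recovered from the steps of the FPKM values, ran from 211 to 4891 nt with a median of 1196 nt, against a median of 1735 nt over the 6364 sequences with at least 5 FPKM in primordium. Members shorter than 500 nt numbered 11, and 14 had at least 2000 nt. Unigenes made up 43.3% of the members and 45.3% of the 6364 sequences.

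The members were of moderate abundance, with a few abundant sequences at the top. Their median was 21.4 FPKM in mycelium, 16.9 in primordium, 11.6 in young and 5.83 in mature fruit body. The range over members was 2.81 to 879.6 FPKM in mycelium, 5.17 to 441 in primordium, 0.910 to 285 in young fruit body and 0.146 to 196 in mature fruit body. In primordium 9 members had at least 100 FPKM, 33 had 10 to 100 FPKM and 18 had 5 to 10 FPKM. Together the members took 0.758% of the fragments in mycelium (95% Wilson interval 0.754% to 0.763%, counting error only), 0.540% in primordium (0.536% to 0.544%), 0.323% in young fruit body (0.320% to 0.326%) and 0.183% in mature fruit body (0.181% to 0.185%). Of the summed FPKM in primordium, a measure in which length does not count, their share was 0.648%. The 8 members of highest FPKM in primordium supplied 68.7%, 61.3%, 58.9% and 65.3% of these fragments, in order of stage.

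**Figure D1:**
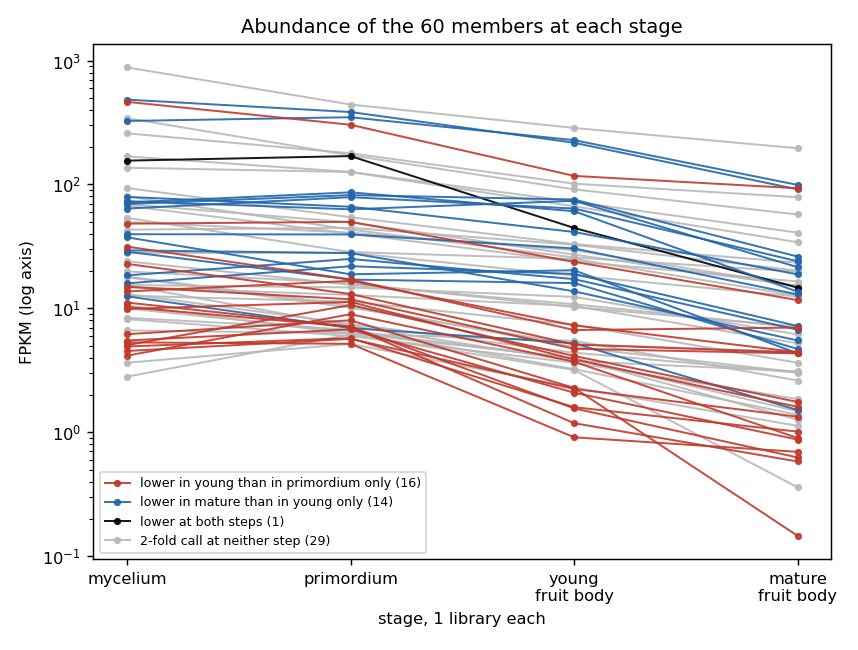
FPKM (log axis) of each of the 60 members in the 4 libraries, in order of development, with 1 line for each member. Colours give the step at which log2(FPKM + 1) differed by at least 1 and the higher library reached 5 FPKM: 16 members between primordium and young fruit body only, 14 between young and mature fruit body only, 1 at both and 29 at neither.

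The most abundant member was Unigene8066 (2842 nt), which supplied 33.4% of the members' fragments in mycelium and 23.6% in primordium. It had 879.6 FPKM in mycelium, 441 in primordium, 285 in young and 196 in mature fruit body. Each library was lower than the one before, and the young and mature fruit bodies differed by less than mycelium and primordium did. In young fruit body it was 1.55-fold lower than in primordium (95% counting interval 1.51 to 1.58), and in mature fruit body 1.46-fold lower than in young fruit body (1.42 to 1.499), so neither step reached 2-fold. Counting intervals here and below are exact conditional binomial intervals on the recovered fragments and leave out any variation between samples.

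Unigene4951 (684 nt) stood at 464 FPKM in mycelium, 303 in primordium, 117 in young and 93.1 in mature fruit body. Its values formed a high pair in mycelium and primordium and a low pair in the fruit bodies. The young fruit body was 2.59-fold below primordium (2.42 to 2.76), whereas the mature fruit body was only 1.26-fold below the young one (1.16 to 1.37). Unigene8222 (1210 nt) had 156 FPKM in mycelium, 169 in primordium, 44.5 in young and 14.7 in mature fruit body. It was the only member called lower at both steps, 3.80-fold in young fruit body against primordium (3.52 to 4.11) and 3.03-fold in mature against young fruit body (2.64 to 3.48). With 279 fragments in mature fruit body against 3082 in primordium, its loss of 11.5-fold (10.2 to 13.1) was the largest among the 9 members with at least 100 FPKM in primordium.

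Among the other abundant members, 2 lost nearly equal shares at each step. Unigene520 (1442 nt) had 168 FPKM in mycelium, 126 in primordium, 72.4 in young and 40.8 in mature fruit body, 1.74-fold lower at the step into young fruit body (1.64 to 1.85) and 1.77-fold lower at the step into mature fruit body (1.63 to 1.92). CL4575.Contig2 (3577 nt), among the 2 longest members, followed a like course with 136, 126, 66.5 and 34.2 FPKM in order of stage, 1.89-fold (1.82 to 1.97) and 1.95-fold (1.84 to 2.06) lower at the 2 steps. CL5525.Contig2 (3253 nt) had 258 FPKM in mycelium, 178 in primordium, 101 in young and 78.8 in mature fruit body. Unigene3785 (867 nt) had 343 FPKM in mycelium, 172 in primordium, 91.2 in young and 57.2 in mature fruit body. In this pair the step into young fruit body was the larger one, at 1.76-fold (1.70 to 1.82) and 1.88-fold (1.76 to 2.02).

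The young fruit body library showed where on this course the loss took place. Its FPKM was below that of primordium in 58 of the 60 members, against 48.0% of the 4411 sequences that had at least 5 FPKM in primordium and differed there by less than 1 in log2(FPKM + 1) from mycelium. The FPKM values of 57 members were ordered with young fruit body below primordium and mature below young fruit body, where 27.7% of the 6364 sequences with at least 5 FPKM in primordium had this order. The members were chosen to be lower in mature fruit body than in primordium, which favours an intermediate value, so these counts are a description. The exceptions were Unigene655, Unigene3761 and CL5250.Contig1, described below. High shares were also found among the other sequences lost from primordium, as given further below. The median log2 difference of young fruit body from primordium was -0.75 over the members and 0.01 over the 6364 sequences. The median difference of mature from young fruit body was -0.83 over the members and -0.05 over those sequences. In FPKM, the median member was 1.72-fold lower in young fruit body than in primordium and 2.02-fold lower in mature than in young fruit body.

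Calls of at least 2-fold on the log2(FPKM + 1) scale, in which the higher library had to reach 5 FPKM, placed some members at each step. In young fruit body 17 of the 60 members were called lower than in primordium, and 0 were called higher. Of the 6820 sequences that reached 5 FPKM in either library, 1.58% were called lower in this comparison and 2.83% higher. Shares over all sequences are likewise taken of those with 5 FPKM in either library of the comparison. In mature fruit body 15 members were called lower than in young fruit body, where the share over all sequences was 2.04%, and 0 were called higher, against 5.22% over all sequences. Of these calls 16 were at the step into young fruit body only, 14 at the step into mature fruit body only and 1, Unigene8222, at both. Of the 16, 11 had under 5 FPKM in young fruit body and so could not be called at the later step. The remaining 29 members were called at neither step. Among these, 26 had a log2 difference under 1 at both steps, and 3 (CL1373.Contig7, CL3062.Contig3 and Unigene4893) had one of at least 1 in mature against young fruit body but were below the minimum of 5 FPKM there. The share of the loss reached in young fruit body ran from 16.1% in Unigene7436 to 83.4% in Unigene2201 within the 29. Because the members had to lose at least 2-fold between primordium and mature fruit body, a called share above that of all sequences follows in part from the choice. Over all 60 members, 5 had a log2 difference of at least 1 in mature against young fruit body but under 5 FPKM in both. These were the 3 named above and CL2561.Contig3 and CL2759.Contig1, which were called at the step into young fruit body. In young fruit body 20 members were under 5 FPKM.

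**Figure D2:**
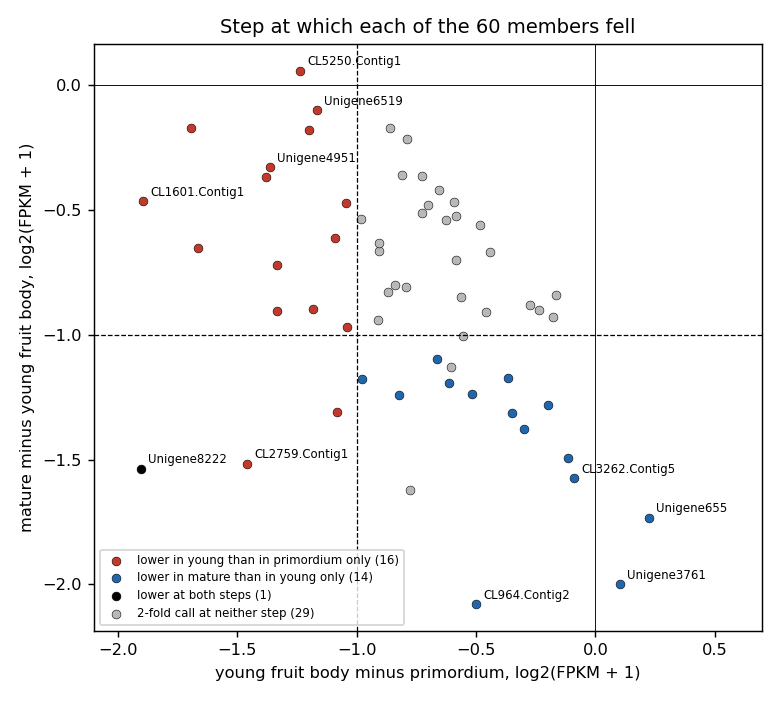
Difference in log2(FPKM + 1) of young fruit body from primordium (horizontal) and of mature from young fruit body (vertical) for the 60 members, 1 point each. Dashed lines mark a difference of -1, and points beyond a line in the colour of another class had under 5 FPKM in the higher library of that step. The points spread along a diagonal from CL1601.Contig1 and CL5250.Contig1, low already in young fruit body, to Unigene655 and Unigene3761, low only in mature fruit body. Both axes share the young fruit body library and the choice held their sum at -1 or lower, which favours such a diagonal.

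The counting intervals separated the steps further. The interval of the young fruit body to primordium ratio lay wholly below 1 for 51 members, and that of mature to young fruit body for 49. Both intervals lay below 1 for 40 members, only that of young fruit body for 11 and only that of mature fruit body for 9, and no member had neither. Members had to lose at least 2-fold between primordium and mature fruit body, so a fall at 1 or both steps follows from the choice. No share over all sequences is given for these intervals, and the counts are a description. The share of each member's loss, on the log2(FPKM + 1) scale, that had been reached in young fruit body had a median of 50.3%, with quartiles of 33.2% and 64.2%. It exceeded 50% in 30 members and did not in the other 30. The share had a similar median in contigs (50.2%) and unigenes (50.4%), and in members higher in mycelium (50.3%) and members higher in primordium (50.4%). By abundance in primordium its median was 53.6% in the 9 members of at least 100 FPKM, 45.3% in the 33 of 10 to 100 FPKM and 55.1% in the 18 of 5 to 10 FPKM.

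**Figure D3:**
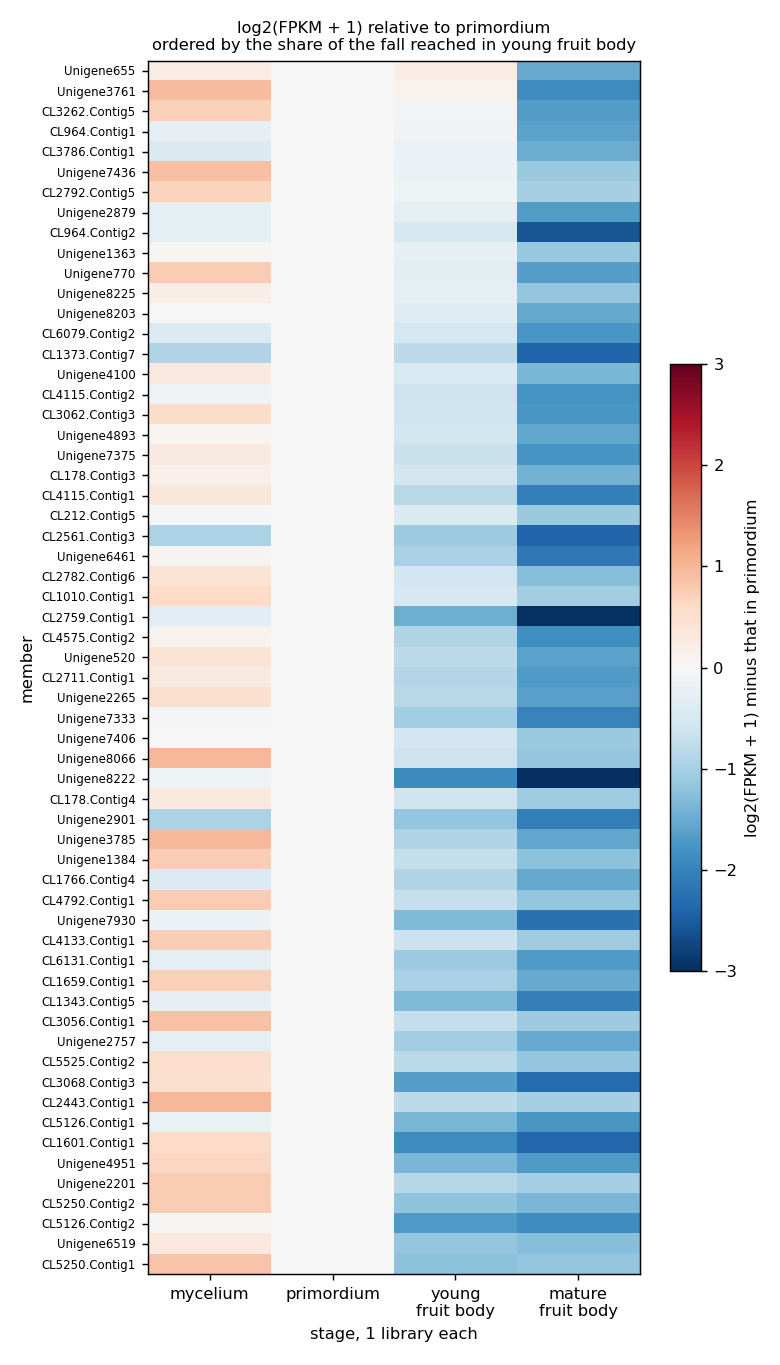
Difference in log2(FPKM + 1) of each library from primordium for the 60 members, 1 row each, with the stages from left to right. Rows are ordered by the share of the loss reached in young fruit body, from Unigene655 at the top, which had lost none, to CL5250.Contig1 at the bottom, which had lost all.

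The members called lower at the step into young fruit body only were for the most part of low abundance. The median of these 16 was 10.1 FPKM in mycelium, 9.80 in primordium, 3.79 in young and 1.47 in mature fruit body, and 8 of them had under 10 FPKM in primordium. In young fruit body 11 of them were under the minimum of 5 FPKM for a later call, which keeps such members in this class. The young fruit body values of the 16 were 2.10-fold to 6.01-fold below primordium, and the interval of the later step held 1 in 7 of the 16. CL5250.Contig1 (1886 nt) had 31.5 FPKM in mycelium, 17.1 in primordium, 6.68 in young and 6.99 in mature fruit body. Its loss was complete in young fruit body, 2.56-fold below primordium (2.16 to 3.04), and it was the only member whose lowest value was in young fruit body. From young to mature fruit body it was level within counting error, with 207 fragments in mature and 194 in young fruit body. Unigene6519 (427 nt) likewise had 14.9 FPKM in mycelium, 11.8 in primordium, 4.71 in young and 4.33 in mature fruit body. Its 29 fragments in mature and 31 in young fruit body could not be told apart by counting, and the young fruit body was 2.51-fold below primordium (1.63 to 3.94).

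CL1601.Contig1 (439 nt) had the largest FPKM ratio between primordium and young fruit body among the members, while on the log2(FPKM + 1) scale it came after Unigene8222 (-1.89 against -1.90). It stood at 11.1 FPKM in mycelium, 7.11 in primordium, 1.18 in young and 0.581 in mature fruit body, from 76, 47, 8 and 4 fragments. In young fruit body it was 6.01-fold below primordium, its counting interval of 2.82 to 14.7 being wide for want of fragments. CL2759.Contig1 (1311 nt) had the largest loss of all members as an FPKM ratio, at 6.18 FPKM in mycelium, 8.01 in primordium, 2.28 in young and 0.146 in mature fruit body. Only 3 fragments were found in mature fruit body against 158 in primordium, a 54.9-fold difference with an interval of 18.4 to 269. On the log2(FPKM + 1) scale its loss of -2.97 was second to that of Unigene8222, at -3.44. The later step of CL2759.Contig1 was the larger, at 15.6-fold (5.02 to 78.5) against 3.52-fold. It was not called because 2.28 FPKM in young fruit body was under the minimum. CL2561.Contig3 (1489 nt) had its highest value in primordium, at 4.15 FPKM in mycelium, 8.97 in primordium, 3.71 in young and 0.899 in mature fruit body. The longest member, CL1343.Contig5 (4891 nt), had 5.50 FPKM in mycelium, 6.77 in primordium, 2.08 in young and 0.873 in mature fruit body. Its young fruit body value was 3.25-fold below that of primordium (2.71 to 3.91).

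Further members of this class are given to complete it. Unigene7333 (1701 nt) stood at 48.2 FPKM in mycelium, 49.9 in primordium, 23.7 in young and 11.7 in mature fruit body, 2.10-fold (1.91 to 2.32) and then 2.04-fold (1.78 to 2.34) lower. It was close to a call at both steps, the log2(FPKM + 1) difference of the last being -0.97. CL6131.Contig1 (1914 nt) stood at 13.7 FPKM in mycelium, 16.7 in primordium, 7.29 in young and 4.43 in mature fruit body. Unigene7930 (755 nt) stood at 9.89, 11.3, 3.87 and 1.60 FPKM in order of stage, Unigene2901 (944 nt) at 5.04, 10.6, 4.13 and 1.76 FPKM, and Unigene2757 (668 nt) at 4.53, 5.67, 2.24 and 1.34 FPKM. The last 4 were higher in primordium than in mycelium, and 9 of the 16 members of this class were. The choice of members bears on this count, since it asked a larger loss from primordium of members higher there.

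The members called lower at the step into mature fruit body only were more abundant. The median of these 14 was 51.7 FPKM in mycelium, 51.2 in primordium, 35.9 in young and 13.3 in mature fruit body, and 13 of them had at least 10 FPKM in primordium. A minimum of 5 FPKM in young fruit body was needed for this call, which keeps scarce members out of it. Unigene655 (700 nt) had 73.3 FPKM in mycelium, 62.9 in primordium, 73.7 in young and 21.5 in mature fruit body. The first 3 libraries were nearly level and the last stood apart, 3.43-fold below young fruit body (2.96 to 3.99). Unigene655 was the only member highest in young fruit body, where it was 1.17-fold above primordium (1.06 to 1.30). Unigene3761 (957 nt) had 37.4 FPKM in mycelium, 18.8 in primordium, 20.3 in young and 4.33 in mature fruit body. Its young fruit body could not be told apart from primordium by counting (1.08-fold higher, 0.912 to 1.27), and its mature fruit body was 4.69-fold below the young one (3.57 to 6.23). CL3262.Contig5 (2251 nt) behaved alike, at 28.7 FPKM in mycelium, 17.1 in primordium, 15.98 in young and 4.70 in mature fruit body, 3.40-fold lower at the last step (2.85 to 4.07).

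The class also held Unigene2879 (1292 nt), level between mycelium and young fruit body at 63.8 FPKM in mycelium, 78.8 in primordium, 63.9 in young and 23.97 in mature fruit body. Its mature fruit body lay 2.66-fold below the young one (2.40 to 2.96). CL3786.Contig1 (2124 nt) reached 15.9, 21.9, 18.95 and 7.20 FPKM in order of stage, and CL6079.Contig2 (1879 nt) 18.5, 25.04, 17.2 and 6.72 FPKM. Both were highest in primordium and 2.63-fold (2.26 to 3.07) and 2.56-fold (2.17 to 3.04) lower at the last step. Unigene7375 (655 nt) reached 79.3, 66.05, 41.3 and 18.8 FPKM, Unigene6461 (1459 nt) 29.4, 27.9, 13.7 and 5.50 FPKM, and Unigene8203 (448 nt) 39.6, 39.5, 30.4 and 12.9 FPKM. Of these, Unigene6461 came nearest to a call at the step into young fruit body, with a log2(FPKM + 1) difference of -0.98. Unigene770 (211 nt) was the shortest member and rested on 5 fragments in mature fruit body, 17 in young fruit body and 22 in primordium.

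The 29 members without a 2-fold call at either step had median FPKM values of 19.9 in mycelium, 15.5 in primordium, 10.8 in young and 7.01 in mature fruit body. Their median loss was 2.46-fold in mature fruit body against primordium, compared with 5.87-fold in the 16 members called only at the step into young fruit body and 3.57-fold in the 14 called only at the step into mature fruit body. CL1373.Contig7 (2839 nt) had by far the largest loss among the 29. It stood at 2.81 FPKM in mycelium, 6.16 in primordium, 3.18 in young and 0.359 in mature fruit body, 17.1-fold lower in mature fruit body than in primordium (10.4 to 30.4). At these low values the log2(FPKM + 1) scale understates the ratio.

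Over all 60 members, the FPKM in mature fruit body was 2.19-fold to 54.9-fold below that in primordium, with a median of 3.27-fold. It was at least 4-fold lower in 22 members, at least 8-fold lower in 6 and at least 16-fold lower in 2, CL2759.Contig1 and CL1373.Contig7. The lowest of the 4 values was in mature fruit body for 59 members. For 46 members the counting interval of this ratio lay wholly beyond 2-fold. Of the other 14, 5 had fewer than 30 fragments in mature fruit body, and 9 had 38 to 192 fragments there and ratios of 2.19-fold to 2.47-fold, near the limit. Over all sequences 4.09% were called lower in mature fruit body than in primordium, a comparison that the choice of members used, so nothing is read from the members' count.

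Within the limit set by the choice, primordium lay below mycelium in 40 members and above it in 20, and the highest of the 4 values was in mycelium for 39, in primordium for 20 and in young fruit body for 1. The counting interval of primordium to mycelium lay wholly below 1 for 31 members, wholly above 1 for 13 and held 1 for 16. No share over all sequences is given for these counts. The median log2 difference of primordium from mycelium was -0.27 over the members. It was 0.26 over the 6364 sequences with at least 5 FPKM in primordium, which were not limited to those near mycelium. Among the 29 members without a call at either later step, 25 were lower in primordium than in mycelium and 4 were higher. The rule took the loss from the lower of the 2 libraries, so members higher in primordium had to lose more from primordium. This split therefore follows in part from the choice, which bears on the counts over all 60 members as well. Unigene7406 (981 nt), which was chosen on its values, was the closest to equality, with 28.04 FPKM in primordium and 28.01 in mycelium, then 18.4 in young and 12.5 in mature fruit body. Against mycelium, 31 of the 55 members with sufficient FPKM were called lower in young fruit body, where the share over all sequences was 24.7%. Young fruit body was below mycelium in 55 of the 60 members, counted without a minimum. Members had to be lower in mature fruit body than in mycelium, which favours a lower value in young fruit body, so both counts are a description. The share over all sequences also takes in those already lower in primordium than in mycelium, which the choice left out.

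Members that share a cluster, and so may share sequence, were compared contig by contig. Each of 5 clusters held 2 members, and 24 held 1. CL4115.Contig1 (941 nt) had 483 FPKM in mycelium, 384 in primordium, 217 in young and 91.2 in mature fruit body. CL4115.Contig2 (934 nt) had 325 FPKM in mycelium, 348 in primordium, 228 in young and 99.1 in mature fruit body. The first was 1.26-fold lower in primordium than in mycelium (1.22 to 1.31), whereas the second was 1.07-fold higher (1.03 to 1.12). In young fruit body they were 1.77-fold (1.69 to 1.85) and 1.53-fold (1.46 to 1.60) lower than in primordium, with intervals that did not overlap. In mature against young fruit body they were 2.38-fold (2.23 to 2.54) and 2.30-fold (2.16 to 2.45) lower, with overlapping intervals. CL4115.Contig3 (546 nt) was no member, at 41.1 FPKM in mycelium, 7.91 in primordium, 1.90 in young and 2.10 in mature fruit body. It was already 5.199-fold lower in primordium than in mycelium, so the cluster held a different course beside those of the members.

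The contigs of CL964 agreed in mycelium and primordium and parted later. CL964.Contig2 (1418 nt) had 71.5 FPKM in mycelium, 86.3 in primordium, 60.8 in young and 13.6 in mature fruit body. CL964.Contig1 (1225 nt), which the naming rule did not select, had 69.5 FPKM in mycelium, 82.0 in primordium, 75.5 in young and 26.2 in mature fruit body. In young fruit body Contig2 was 1.42-fold lower than in primordium (1.32 to 1.53) and Contig1 1.09-fold lower (1.01 to 1.17). In mature against young fruit body Contig2 was 4.46-fold lower (3.94 to 5.07) and Contig1 2.89-fold lower (2.61 to 3.20), and the intervals did not overlap at either step. CL5250.Contig2 (1436 nt), the partner of CL5250.Contig1, had 22.9 FPKM in mycelium, 13.0 in primordium, 5.11 in young and 4.39 in mature fruit body. Both contigs of CL5250 reached nearly all of their loss in young fruit body, and their ratios to primordium there, 2.56-fold lower in Contig1 and 2.55-fold lower in Contig2, differed by less than their intervals.

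CL5126.Contig1 (693 nt) and CL5126.Contig2 (642 nt) were a scarce pair that also lost most of their abundance in young fruit body. The first had 4.92 FPKM in mycelium, 5.75 in primordium, 1.59 in young and 1.01 in mature fruit body, and the second 5.31, 5.18, 0.910 and 0.695 FPKM. Their mature fruit body values rest on 11 and 7 fragments, and the step from young to mature fruit body was not detectable at this depth in either. CL178.Contig4 (1422 nt) and CL178.Contig3 (1033 nt) had neither step called. CL178.Contig4 stood at 19.9 FPKM in mycelium, 15.9 in primordium, 10.2 in young and 7.13 in mature fruit body, and CL178.Contig3 at 12.6, 11.3, 7.35 and 3.64 FPKM. The sources used here do not say how the authors split fragments among the contigs of a cluster, so values of single contigs carry an uncertainty that was not tested.

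**Figure D4:**
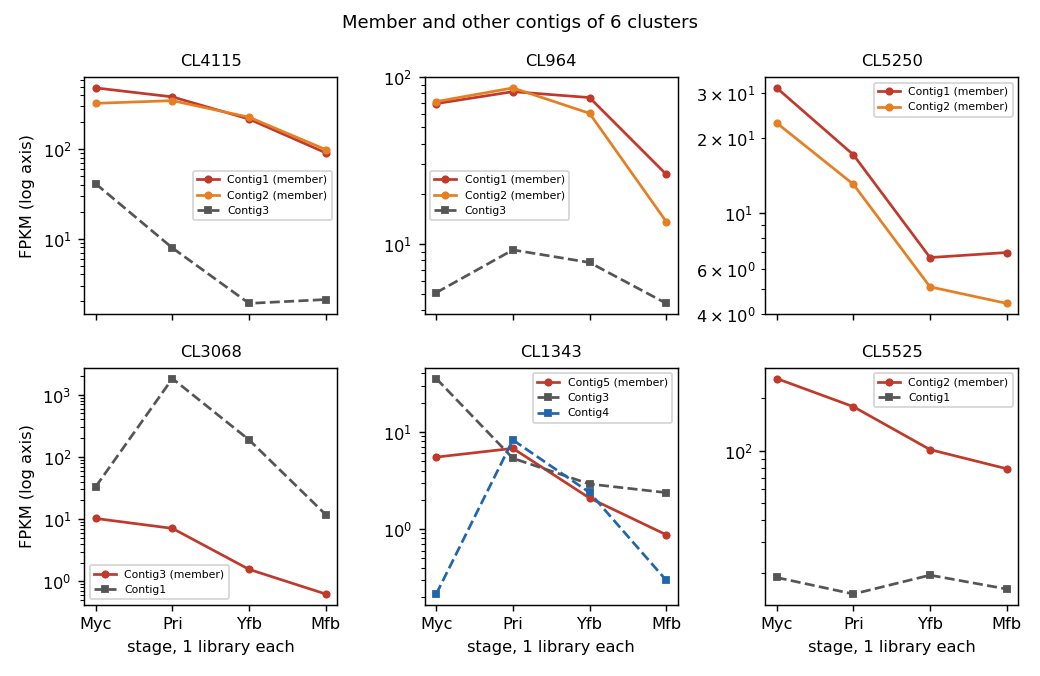
FPKM (log axis) by stage (Myc mycelium, Pri primordium, Yfb young fruit body, Mfb mature fruit body) of the contigs of 6 clusters that reached 5 FPKM in any library, with members as solid lines and other contigs dashed. The 2 members of CL4115 were closer to each other in the fruit bodies than in mycelium, those of CL964 parted from young fruit body onward, and CL3068.Contig1 had a peak in primordium that CL3068.Contig3 lacked.

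The 29 clusters held 120 contigs, of which 86 were not members. Only 15 of these, in 13 clusters, had at least 5 FPKM in primordium or mature fruit body. Of the 15, 6 were called lower in mature fruit body than in primordium (40%), 9 were not called and 0 were called higher, against 4.09% lower and 8.39% higher over all sequences. These clusters were chosen through a member that lost abundance, and contigs of a cluster may share sequence, so the 40% is a description. Of the 6, which were singled out by this call, CL212.Contig6 and CL212.Contig7 were within 2-fold of mycelium in primordium on the log2(FPKM + 1) scale, as the member CL212.Contig5 was. CL1601.Contig2 and CL4115.Contig3 were lower in primordium than in mycelium. CL1343.Contig4 and CL3068.Contig1 were higher in primordium than in mycelium, the second by far. CL3068.Contig1 (528 nt) had 33.3 FPKM in mycelium, 1820.5 in primordium, 188 in young and 11.8 in mature fruit body, while the member CL3068.Contig3 (917 nt) had 10.2, 7.10, 1.56 and 0.626 FPKM. The member showed no peak in primordium. Where FPKM was summed over each cluster, 18 of the 29 clusters met the rule and 11 did not. CL5525.Contig1, beside the abundant member CL5525.Contig2, was nearly level, at 18.8 FPKM in mycelium, 15.2 in primordium, 19.4 in young and 16.2 in mature fruit body.

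The members were 20.6% of the 291 sequences that had at least 5 FPKM in primordium and were called lower in mature fruit body than there. Of the others, 155 had been called higher in primordium than in mycelium, 57 had been called lower, and 19 lay within 2-fold of mycelium in primordium but fell short of the loss against mycelium. Sequences within 2-fold of mycelium made up 27.1% of the 291 and 69.3% of all 6364 sequences with at least 5 FPKM in primordium. The share of the loss reached in young fruit body had a median of 50.3% in the members, 35.7% in the 155 sequences called higher in primordium, 55.3% in the 57 called lower there than in mycelium and 39.3% in the 19. Young fruit body was below primordium in FPKM in 96.7% of members, 90.3% of the 155, 96.5% of the 57 and 100% of the 19. FPKM fell in order from primordium through young to mature fruit body in 95%, 83.2%, 91.2% and 94.7% of these groups, respectively. In young fruit body 28.3% of the members, 29.0% of the 155, 43.9% of the 57 and 5.26% of the 19 were called lower than in primordium. In mature fruit body 37.5% of the 40 members with sufficient FPKM were called lower than in young fruit body, as were 60.7% of 122, 29.3% of 41 and 20% of 15 sequences of the other groups. With 1 library for each stage these differences between groups could not be tested. The median length was 1196 nt in the members, 1721 nt in the 155, 1282 nt in the 57 and 2122 nt in the 19, and the part of length in these differences was not tested.

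The values at the edges of the rule show how sharply it divides. At the minimum of 5 FPKM in primordium, CL1766.Contig4 (5.17 FPKM) and CL5126.Contig2 (5.18 FPKM) lay just inside, and Unigene5127 (4.93 FPKM) and CL5222.Contig2 (4.60 FPKM) just outside. At the limit between mycelium and primordium, Unigene3785 and Unigene8066 lay just inside with a log2 difference of 0.99 each. The nearest outside were Unigene7264, at 662 FPKM in primordium and 1345 in mycelium with a log2 difference of 1.02, and Unigene6556, at 575 FPKM in primordium and 1184 in mycelium with 1.04. Both were more abundant than any member in mycelium and primordium, and they had 217 and 102 FPKM in mature fruit body, against 196 FPKM in the member Unigene8066. At the limit of the loss, CL2792.Contig5 (1.00) and CL2443.Contig1 (1.01) lay just inside, and CL1761.Contig1 (0.99) and CL4973.Contig2 (0.98) just outside. For 4 members the FPKM ratio between mycelium and primordium was beyond 2-fold, and they were within the limit only on the log2(FPKM + 1) scale.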

How the data were processed

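Per the file headers, the deposited values are FPKM, computed by the authors with 4 decimals for each library. Aligner, counting tool, reference sequences and filters are not stated there or in the labels. Columns were matched to stages through the abbreviations given in the sample descriptions. Whole fragments were recovered from the FPKM steps: ratios of library denominators came from sequences of equal counts, the absolute denominator from the period that gave whole lengths (coherence 0.874, against a median of 0.0113 at other periods), and each length was the shortest, from 200 nt upward, at which every library had a whole count. Denominators were 15541785, 15048631, 15400578 and 15691317 fragments in order of stage. Whole counts were found for 100% of the 50567 sequences above 0, within a tolerance of 5.1e-05 FPKM, which is not a separate check. Counts with a common factor are understated by it, which widens their intervals. Recovery and rule were also run on counts simulated from the recovered values, with counting error only. That run started from the recovered lengths, so it is no separate check of them.

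Differences are on log2(FPKM + 1), with a pseudocount of 1, which understates differences of scarce sequences. A call needs a difference of at least 1 and at least 5 FPKM in the higher library. With 1 library per stage no test was made, and no count test was run on the recovered fragments. Intervals are at 95% and cover counting error only. The members and lists were chosen with earlier results of these data known. Named members are the 8 of highest FPKM in primordium, the 6 of largest loss and the 2 longest. These are joined by the 4 lowest and the 4 highest in young fruit body relative to primordium and mature fruit body. Both sets of 4 were taken among members of at least 10 FPKM in primordium. The list ends with the members of up to 3 clusters with most members and those at the edges of the rule. Other members are described outside this list, and not all are marked as such where they appear. No contig of a member's cluster was called higher in mature fruit body, so that part of the rule named none. Python 3.11.15, numpy 2.4.6, pandas 2.3.3, scipy 1.17.1 and numba 0.67.0 were used.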

Additional observations from a re-analysis of the deposited data

How the results depend on the processing

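The rule was reapplied under 11 alternatives. The number of members, 60 as reported, was 30 with a pseudocount of 5, 27 with at least 20 FPKM in primordium, 130 with no minimum, 8 at a loss of 4-fold and 39 with mycelium and primordium within 1.5-fold; it stayed within 1.5 times under the other 6 (46 to 78), and 54, 57 and 54 of the 60 members were kept under upper-quartile, median-of-ratios and equal-sum scaling. Members lower in young fruit body than in primordium numbered 3 with a pseudocount of 5, 3 at 20 FPKM and 5 at 4-fold, against 17; those lower in mature than in young fruit body numbered 9 with a pseudocount of 5 and 4 at 4-fold, against 15. The median log2 difference of young fruit body from primordium was -0.64 with no minimum and -1.40 at 4-fold, and that of mature from young fruit body -0.94 at 20 FPKM, -1.21 at 4-fold and -0.70 with median-of-ratios scaling; both medians stayed below 0 under all 11. The members' share of the summed FPKM in primordium, 0.648% as reported, was 0.667% and 0.575% with pseudocounts of 0.1 and 5, 0.587% at 20 FPKM, 0.682% with no minimum, 0.132% at 4-fold, 0.415% within 1.5-fold, 1.13%, 1.04% and 0.886% with upper-quartile, median-of-ratios and equal-sum scaling, and 0.608% for members whose counting interval lay beyond 2-fold. Other contigs called lower in mature fruit body than in primordium numbered 1 with a pseudocount of 5, 3 at 20 FPKM and 3 with equal sums, against 6. Minimums and thresholds move counts by admitting fewer or more sequences, and a pseudocount also changes the log2 differences themselves. A share within a library is unchanged by scaling it, so the shares under scaling moved with the sequences admitted and dropped. Under upper-quartile, median-of-ratios and equal-sum scaling 24, 17 and 7 sequences outside the 60 were admitted. The cause of the remaining shifts was not tested. Upper-quartile scaling moved the median log2 difference of primordium from mycelium over all sequences to 0.10, against -0.09 as deposited. Under the 5 alternatives of pseudocount or scaling, the 60 members kept the sign of young fruit body minus primordium in all 300 recalculations, of which 52 moved the log2 difference by 0.1 or more (CL5126.Contig2 from -1.69 to -0.78 with a pseudocount of 5). The depth limits members with few fragments in mature fruit body. No paired analysis was possible because there was a single library for every stage.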

Other observations

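The opposite course also occurred, and in more sequences than the loss where the 5 FPKM minimum lay at each course's higher end. A group of 279 sequences differed by less than 1 in log2(FPKM + 1) between primordium and mycelium and was higher in mature fruit body by at least 1 than in both, with at least 5 FPKM there, a definition chosen after the values were seen. Its median FPKM was 1.503 in mycelium, 1.72 in primordium, 3.19 in young and 11.7 in mature fruit body, and 60 of the 279 had at least 5 FPKM in primordium, the minimum that all members of the lost group had to meet. The share of its rise reached in young fruit body had a median of 20.3%, beside 50.3% for the loss in the 60 members. The difference was not tested, and the 2 groups differ in abundance and in the library that carries the FPKM minimum.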
